A study of Mus musculus with 2 samples.

Results

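Ribosomal protein pseudogenes are copies of ribosomal protein messenger RNAs that were reverse-transcribed and inserted into the genome, mostly without introns and promoters of their own. They were examined here in mouse erythroleukemia (MEL) cells, an immortalized line of transformed red-cell precursors, from polyA mRNA sequenced as single-end reads. The data hold 1 group, MEL, with 2 biological replicates and no treatment or second condition, so that no comparison between conditions was possible and no test was made. Nothing in the labels says how the 2 cultures were separated, and their spread may be partly technical. The members were chosen by symbol and by their own readout: a mouse gene symbol of a ribosomal protein followed by the suffix -ps, and an expected count of at least 20 summed over both replicates. An expected count is the number of reads that the quantifier apportioned to a gene, in which a read that matches several genes is split among them. Of 257 such symbols in the tables, 149 passed and 108 did not, and 36 of those 108 were at 0 in both replicates. The 149 members stand beside 43346 genes in all. Just inside the threshold were Rpl9-ps3, Rpl26-ps4 and Rpl38-ps1 with summed counts of 20.3, 20.5 and 20.5, and just outside it were Rpl23a-ps1, Rps19-ps10 and Rps12-ps20 with 19.4, 18.9 and 18.6.

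Ribosomal proteins are made in every growing cell from some of its most abundant messenger RNAs, which makes these genes frequent templates for retrotransposition. A processed pseudogene that is young, or that has been kept, can match the coding sequence of its parent over long stretches, and a short read from such a stretch cannot be placed on one or the other by its bases. Red-cell precursors need much ribosome production, and inherited defects of several ribosomal protein genes, RPS19 and RPL35A among them, cause Diamond-Blackfan anaemia in humans. The label of the cells fitted its markers: the 9 erythroid markers read between 35.8 and 4820.5 TPM, a share of all transcripts that takes gene length into account, and 5 markers of T cells, B cells, myeloid cells, liver and fibroblasts read at most 0.46 TPM. The replicates held 67735380 and 79923143 expected counts on genes.

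The sequences of 148 members could be read from the GENCODE M21 transcripts (build GRCm38), and 146 of them aligned to a coding transcript of the gene in their name, called the parent here. Their median identity to it was 98.4%, and the lowest was 87.5%. 51 members were at least 99% identical, and 12 had no substitution or gap at all in the aligned part. Rpl38-ps2, on the minus strand at chr6:140746960-140747172, is shown whole because its 213 bases equal the coding part of Rpl38 from start codon to stop codon. Rpl38 is a large-subunit protein known in mice for its part in the translation of Hox messenger RNAs.
Rpl38-ps2: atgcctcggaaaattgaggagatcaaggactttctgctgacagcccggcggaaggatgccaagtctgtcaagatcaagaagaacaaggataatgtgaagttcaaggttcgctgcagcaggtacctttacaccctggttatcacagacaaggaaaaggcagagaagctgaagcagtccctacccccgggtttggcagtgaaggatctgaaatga

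Further pairs are shown over 75 coding bases, each taken where the member differs most from its parent, with the differing bases in capitals. Rpl35a-ps2, Rpl35a-ps3, Rpl35a-ps4 and Rpl35a-ps6 had one and the same sequence over their 333 bases, with the single substitution G156A against Rpl35a, counted from 1 at the first base of the start codon. They lie on chromosomes 1, 17, 2 and 5. The stretch shown for Rpl35a-ps2 is chr1:181242128-181242202 on the minus strand.
Rpl35a-ps2: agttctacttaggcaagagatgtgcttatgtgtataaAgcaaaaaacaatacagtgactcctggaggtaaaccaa
Rpl35a: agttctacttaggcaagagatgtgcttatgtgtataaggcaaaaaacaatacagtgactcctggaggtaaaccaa

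Rpsa-ps10 is shown because it had the most reads of all members, and it carried 6 substitutions against Rpsa. Its stretch is chr3:150073291-150073365 on the minus strand.
Rpsa-ps10: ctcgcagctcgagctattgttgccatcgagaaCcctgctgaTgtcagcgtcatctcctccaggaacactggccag
Rpsa: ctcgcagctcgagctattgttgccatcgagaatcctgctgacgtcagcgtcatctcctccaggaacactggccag

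Rps15a-ps8 and Rplp0-ps1 are shown as members with most of their sequence to themselves. The stretches are chr4:53791344-53791418 on the minus strand for Rps15a-ps8, with 11 differences, and chr3:93278796-93278870 on the plus strand for Rplp0-ps1, with 8.
Rps15a-ps8: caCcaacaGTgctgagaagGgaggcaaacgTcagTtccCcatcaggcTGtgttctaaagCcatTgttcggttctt
Rps15a: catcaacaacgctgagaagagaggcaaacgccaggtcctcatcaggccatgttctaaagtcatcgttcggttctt
Rplp0-ps1: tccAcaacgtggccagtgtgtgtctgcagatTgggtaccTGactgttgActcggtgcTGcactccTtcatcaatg
Rplp0: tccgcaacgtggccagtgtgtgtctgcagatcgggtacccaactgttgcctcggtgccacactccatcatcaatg

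Rpl36a-ps3 is shown with 2 genes because the gene in its name is not the one it is closest to. Over the stretch chr6:136488921-136488995 on the plus strand it differed from Rpl36a at 15 bases and from Rpl36al, a related large-subunit protein gene, at 1. In the lines of Rpl36a-ps3 and Rpl36al the capitals mark differences from Rpl36a.
Rpl36a-ps3: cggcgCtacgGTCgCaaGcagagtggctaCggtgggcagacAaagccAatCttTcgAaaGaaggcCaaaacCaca
Rpl36a: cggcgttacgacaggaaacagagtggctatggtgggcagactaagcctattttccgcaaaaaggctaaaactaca
Rpl36al: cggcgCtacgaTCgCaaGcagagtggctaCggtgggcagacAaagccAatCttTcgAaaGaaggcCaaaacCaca

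How much of a member is its own was measured by windows of 45 bases, the read length implied by the 44 bases between deposited and effective lengths. A window was called unique where no transcript of any other M21 gene held it on either strand. The median member had 34.5% unique windows. 23 members had none, and 52 had at least 50%. In 26 members the deposited length differs from that in M21, and their windows describe the M21 sequence only. Rpl27-ps3, among the 23, has 411 bases in M21 and a deposited length of 475. The parent was the gene that shared most windows with 82 of 148 members, and another gene shared more in 66. A processed pseudogene outside the naming rule shared more windows than the parent in 44 members, and a protein-coding gene other than the parent did so in 4. For Rps23-ps2 that gene was C330021F23Rik, whose exon overlaps the member itself on the opposite strand. Windows shared there can be the same bases of the genome, and Rps23-ps2 is among the 23 members without a unique window. Rpl36a-ps3 shared 83.8% of its windows with Rpl36al and none with Rpl36a. Among the 120 alignments that covered the whole coding part of the parent, 90 had no gap and no stop codon before the parent's own, and 6 had no gap but an early stop. The 90 open frames had a median of 5.1 TPM, the other 30 one of 1.54 TPM, and 20 of the 25 aligned members with a mean of at least 100 TPM were among the 90. By annotation, 142 members were processed pseudogenes, 3 transcribed processed pseudogenes and 4 protein-coding: Rpl10-ps3, Rps12-ps3, Rpl36a-ps1 and Rpl9-ps6.

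The 149 members received 700439 expected counts in replicate 1 and 912604 in replicate 2, which is 1.03% and 1.14% of the counts on all genes. Their 50 parent genes received 1526027 and 2301333. The members therefore took 31.5% and 28.4% of the counts on members and parents together, a mean of 29.9% ± 2.17 (SD, n = 2). With all 77 cytosolic ribosomal protein genes in the denominator the share was 19.0%. The reads were concentrated: the 10 members with the most counts in a replicate held 77.3% of the members' counts in replicate 1 and 72.3% in replicate 2.

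Per length, most members were low. The median member read 2.50 TPM in replicate 1 and 2.01 TPM in replicate 2, against 878 and 1065 TPM for the median parent. All 15229 genes whose counts also summed to 20 or more, called the background genes below, had medians of 11 and 10.6 TPM. Between members, mean TPM ran from 0.325 to 2572. 11 members had a mean TPM of at least 1000, 15 lay between 100 and 1000, 26 between 10 and 100, 63 between 1 and 10, and 34 below 1. In both replicates, 94 of 149 members (63.1%) reached 1 TPM, against 50 of 50 parents, 43.98% of 1362 other processed pseudogenes among the background genes, and 75.9% of all background genes. These levels partly chose the members and are given as a description.

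On the log2(TPM + 0.1) scale the median difference of a member from its parent was -7.51, with -7.43 in replicate 1 and -7.63 in replicate 2. Single members ranged from -12.04 for Rpl26-ps4 to 4.62 ± 1.12 for Rpsa-ps10 (SD, n = 2). 86 members lay below 1% of their parent. 16 members had a mean TPM above that of their parent, 15 of them in both replicates.

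Several of the highest members carry the names of small-subunit proteins. Rps23-ps1, on chromosome 3, is named after a protein of the decoding centre, and it read 2467 and 2676 TPM in replicates 1 and 2, against 392 and 346 TPM for Rps23. Rps6-ps4, on chromosome 2, is named after the substrate of S6 kinase. It read 3243 and 1652 TPM, against 950.2 and 1332 TPM for Rps6. Rpsa-ps10 read 1562 and 2945 TPM, against 110.01 and 69.1 TPM for Rpsa, which encodes a protein of the small subunit also known as the laminin receptor. In all 3 pairs the pseudogene was above the parent in each replicate, and no value of one overlapped a value of the other. Rps13-ps2 read 587 and 1173 TPM, against 201 and 322 TPM for Rps13. Rps15a-ps7 read 790.2 and 958 TPM, against 407 and 450.3 TPM for Rps15a. Rps16-ps2 was the only 1 of the 15 highest members with a mean below its parent, at 1029.7 and 1433 TPM, against 1135 and 1564 TPM for Rps16.

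**Figure D1:**
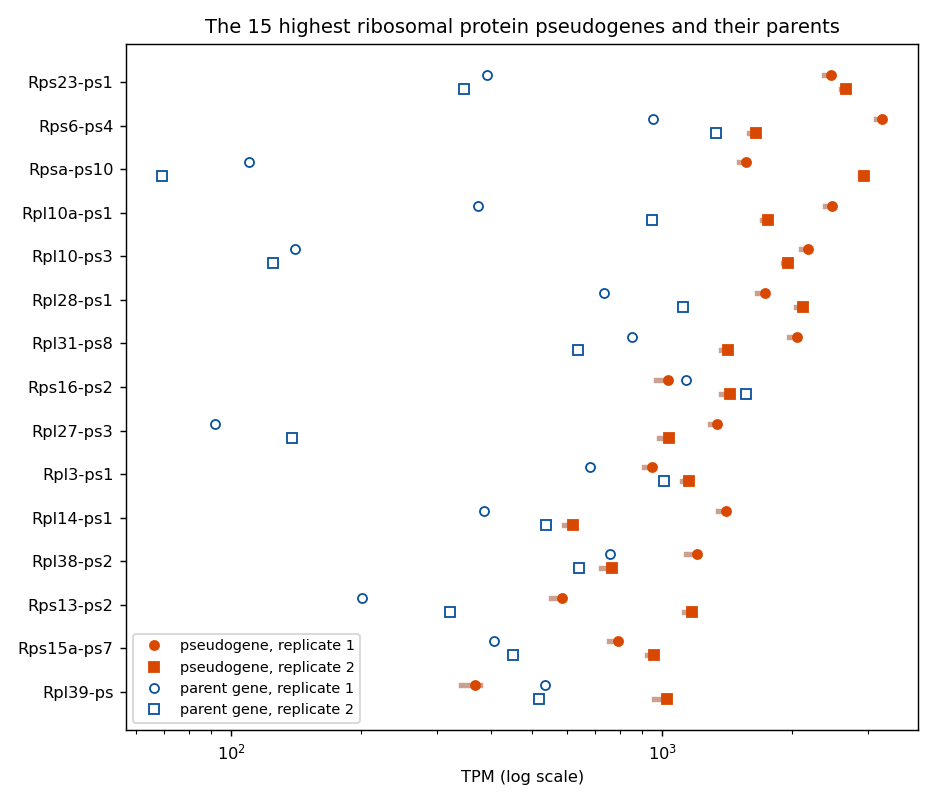
TPM (log scale) of the 15 members with the highest mean TPM, one per row, in orange, and of the parent gene of each in blue; circles are replicate 1, squares replicate 2, and bars the deposited credibility interval of the pseudogene. Rpsa-ps10 lies farthest to the right of its parent, and Rps16-ps2 lies left of its parent in both replicates.

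Among large-subunit names, Rpl10a-ps1 read 2475 and 1759.8 TPM, against 374 and 948 TPM for Rpl10a. Rpl10-ps3, annotated as protein-coding in M21, read 2175 and 1962 TPM, against 141 and 125 TPM for Rpl10, a protein that joins the large subunit late in its assembly. Rpl27-ps3 read 1344 and 1039 TPM, against 91.7 and 139 TPM for Rpl27. Gm11518, an unnamed processed pseudogene, holds every M21 window of Rpl27-ps3, as Rpl27 does. It was listed at 0 in replicate 1 and read 1207 TPM in replicate 2. The member and this copy summed to 1344 and 2246 TPM. No value of the 3 members overlapped a value of its parent. Rpl28-ps1 (1729.9 and 2117 TPM, against 734 and 1119 TPM for Rpl28) and Rpl31-ps8 (2054 and 1424 TPM, against 853 and 636 TPM for Rpl31) also stood above their parents without overlap. Rpl14-ps1 read 1408 and 620.0 TPM, against 386 and 539 TPM for Rpl14.

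In the remaining members above their parents the groups came close or overlapped. Rpl3-ps1, named after a protein near the peptidyl transferase centre, read 949 and 1152 TPM, against 679 and 1008 TPM for Rpl3. Rpl38-ps2 read 1206 and 765 TPM, against 757 and 642 TPM for Rpl38. Rpl34-ps1 read 671 and 721 TPM, against 349 and 651 TPM for Rpl34. Rpl15-ps3 read 634 and 692 TPM, against 481 and 576 TPM for Rpl15. Rpl39-ps is the member that exceeded its parent in 1 replicate only, with 369 and 1028.5 TPM, against 536 and 518 TPM for Rpl39, which lines the peptide exit tunnel.

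The high levels went with sequence that is not the member's own. Of the 16 members above their parent, 10 were identical to it over the aligned part, and 15 of 16 had a sequence that could be compared. Of 25 aligned members with a mean of at least 100 TPM, 22 were at least 99% identical to the parent, and 2 had over 20% unique windows. The 23 members with no unique window had a median of 229 TPM, ranging from 0.565 to 2572. The 52 members with at least 50% unique windows had a median of 1.22 TPM, and 25 of them reached 1 TPM in both replicates. Across 146 members, Spearman's rho of mean TPM was -0.52 with the unique share and 0.58 with identity, as a description over members that share libraries, parents and reads. Length moved along too: the deposited length of the member was below that of its parent in 146 of 149 members, in all 16 members above their parent, and in 11 of the 12 identical members, 10 of which exceeded the parent. The twelfth, Rps12-ps3, has a deposited length of 494 bases, against 476 for Rps12, and read 270.3 and 188 TPM, against 2201 and 3500 TPM for Rps12. The part of sequence identity and length in these levels was not tested.

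**Figure D2:**
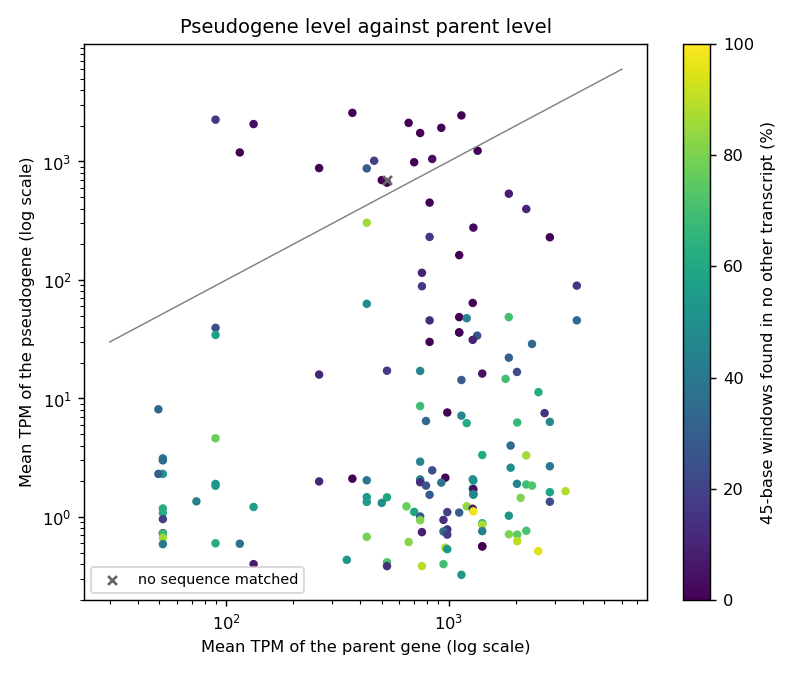
Mean TPM of each of the 149 members (vertical, log scale) against mean TPM of its parent gene (horizontal, log scale), shaded by the percentage of 45-base windows found in no other transcript; the line marks equal levels and the cross is Rpl39-ps, for which no sequence was matched. Above the line, none of the 15 members with a sequence has more than 29.3% unique windows, and most bright points lie near 1 TPM.

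Rps15a-ps8 was the exception among the high members. On chromosome 4, outside any annotated gene, it read 387 and 221 TPM, although 85.7% of its windows were unique, its identity to Rps15a was 92.2%, and only 6.12% of its windows were found in Rps15a. Its credibility intervals were narrow, 367 to 388 TPM in replicate 1 and 209.9 to 224 TPM in replicate 2. It was the highest of the 52 members with at least 50% unique windows. Next came Rplp0-ps1, whose parent encodes the stalk protein that binds elongation factors. Rplp0-ps1 read 43.2 and 54.0 TPM, against 1379 and 2349 TPM for Rplp0, and 70.1% of its windows were unique. It lies in an intron of Flg, on the same strand, and Flg was listed at 0 in both replicates. Rpsa-ps12 read 19.95 and 48.8 TPM with 56.2% unique windows. Rpl22-ps1 (19.8 and 9.51 TPM), Rps15-ps2 (11.01 and 11.6 TPM) and Rpl31-ps15 (9.19 and 8.07 TPM) followed with between 61.9% and 69.9% unique windows. Among the members with the most unique 36-base windows, Rpl30-ps5 read 1.27 and 0.96 TPM, Rpl32-ps 1.78 and 1.52 TPM, and Rpl26-ps4 and Rps27a-ps1 stayed at or below 0.81 TPM in each replicate.

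The families differed widely in how their reads were divided between pseudogenes and parent. By the mean of both replicates, the members took at least 50% of the family's counts in 12 of 50 families, at least 10% in 25, and below 1% in 16. In both replicates alike, 11, 23 and 13 families met these limits. A family here holds the parent and its named members, and unnamed copies were not counted in it. Rpl10 led, with 93.3% of counts on its 3 members in each replicate, followed by Rpsa with 88.9% and 95.9% on 7 members. Rps15a, also with 7 members, had 72.7% and 76.6%, and Rpl31, with 9, had 64.5% and 63.0%. Rpl21, with 10 members, the most of any family, had 17.1% and 9.77%, and none of its members reached 5 TPM in either replicate. Rpl21 itself read 50.7 and 53.2 TPM, while Gm10163, an unnamed processed pseudogene that shares 32.8% of the windows of Rpl21-ps14, read 355 and 495 TPM and stood outside that share. Rps19, the parent whose human counterpart is mutated most often in Diamond-Blackfan anaemia, had 7 members with 1.36% and 1.40% of the family's counts. Its members together read 15.4 and 31.0 TPM, against 977 and 1855 TPM for Rps19. Rps19-ps1 and Rps19-ps2 were identical to each other and were given equal counts.

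**Figure D3:**
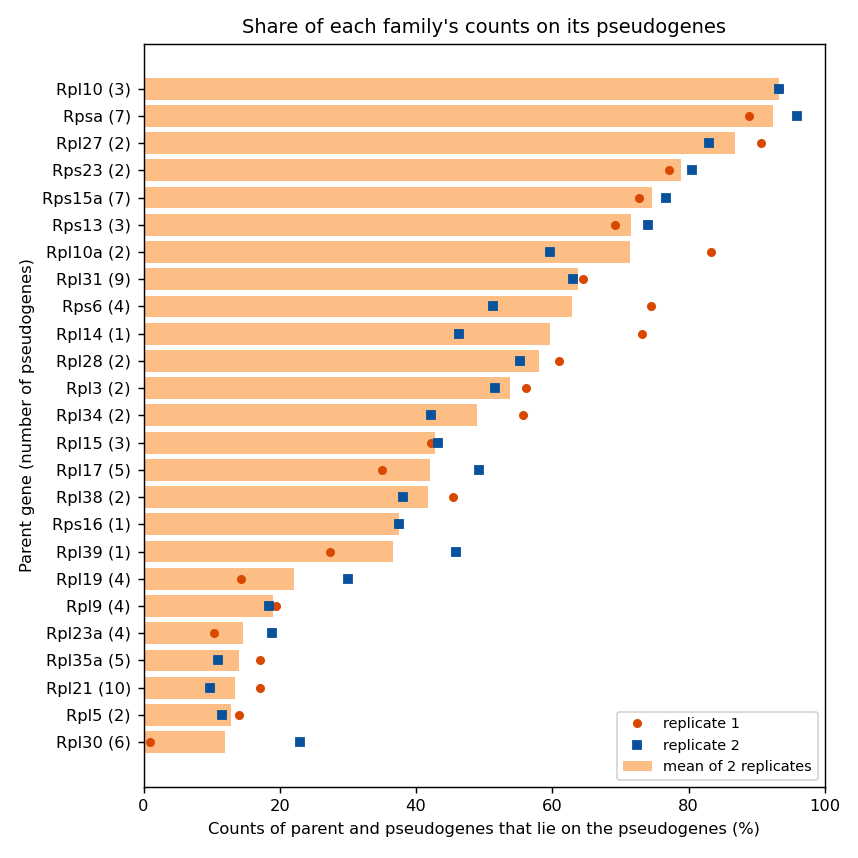
Percentage of each family's expected counts (members plus parent) that lie on its pseudogenes, for the 25 families with the highest mean, with the number of pseudogenes in brackets; bars are means of 2 replicates, circles replicate 1 and squares replicate 2. Rpl10 and Rpsa are at the top, and Rpl30 is at 0.90% in replicate 1 and 22.9% in replicate 2.

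Between replicates the division changed within families. Among the 25 families with at least 10% of counts on members, the log2 ratio of TPM in replicate 2 over replicate 1 had opposite signs for members and parent in 13. In the Rpl10a family the ratio was -0.49 for the members and 1.34 for the parent, and -0.07 for their sum. The median size of the ratio was 0.52 for the members, 0.48 for the parents and 0.39 for the sums. In 7 of the 25 families the sum moved less than both its parts. The ratio of a sum lies between the ratios of its parts for any pair of genes, and unrelated pairs were not compared. Whether reads moved between members and parent was not tested.

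The quantifier also deposited a posterior SD of each count and a credibility interval of each TPM. The posterior SD describes how well the reads fix the division between genes. The interval is not a measure of that division alone. Rpl26-ps4, for example, had a posterior SD of 0.91 on 11.7 counts in replicate 1, but an interval of 0.336 to 1.09 TPM. Neither describes how replicates vary. Relative to the square root of the count, the pooled posterior SD had a median of 1.24 over members, 1.19 over parents, 0.83 over other processed pseudogenes and 0.00122 over the background genes. It exceeded 3 in 25 of 149 members (16.8%), in 0 of 50 parents, in 6.39% of other processed pseudogenes and in 1.55% of background genes. Members with fewer unique windows had larger ratios (Spearman's rho -0.74 over 146 members, a description). The 52 members with at least 50% unique windows had a median ratio of 0.63, with 11 of them above 1, and the 23 with none had a median of 2.69. The 23 were far from uniform: their ratios ran from 0.66 to 170.5, with 10 below 2 and 10 above 3.

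**Figure D4:**
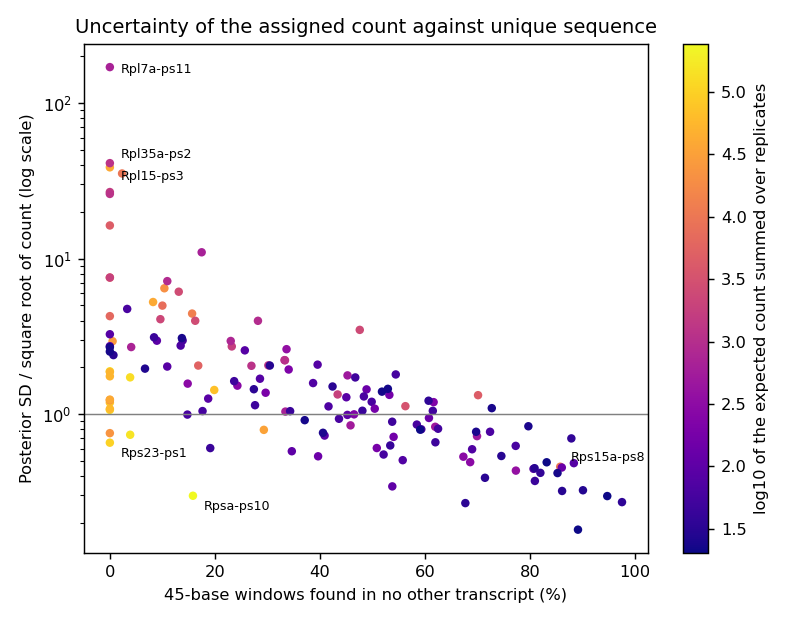
Posterior SD divided by the square root of the expected count, pooled over replicates (vertical, log scale), against the percentage of 45-base windows found in no other transcript, for 148 members shaded by log10 of the summed count; the line marks a ratio of 1. Members at 0% spread from 0.66 for Rps23-ps1 to 170.5 for Rpl7a-ps11, and the 18 members with over 75% unique windows lie below the line, between 0.18 and 0.84.

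A small posterior SD was thus found with and without sequence of the member's own. Among 54 members with at least 100 counts in both replicates, the lowest ratio was that of Rpsa-ps10, at 0.30, with 15.8% unique windows. Those windows cover its 885 bases in M21, while its deposited length was 1031. How much of the deposited sequence was unique is therefore not known. Rps15a-ps8 followed at 0.46, then Rpl31-ps15 at 0.49. Rps23-ps1, with no unique window, had 0.66, and Rpl34-ps1, also with none, 0.75. Rpl22-ps1, Rpl10-ps3, Rps15a-ps7 and Rps15-ps2, also among the lowest 10, lay between 0.72 and 0.83.

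At the other end stood several identical or nearly identical copies. The ratio was 41.1 for Rpl35a-ps2, 26.8 for Rpl35a-ps3, 26.1 for Rpl35a-ps4 and 16.3 for Rpl35a-ps6. These 4 identical copies each had 997 counts and 58.6 TPM in replicate 2. In replicate 1 Rpl35a-ps2 and Rpl35a-ps4 each had 13.6 TPM, Rpl35a-ps3 had 38.6 TPM and Rpl35a-ps6 had 266 TPM. The 4 copies summed to 331 and 234 TPM, so that the sum varied less, as a ratio, than each of its parts. Gm10243, an unnamed copy that holds every window of these 4, was also at 13.6 and 58.6 TPM. It and the other unnamed copies named here were singled out after their values were seen. Rpl15-ps3, identical to Rpl15, had a ratio of 38.6: its TPM of 634 and 692 came with intervals of 114 to 611 and 64.4 to 679 TPM. Rps18-ps3, Rps12-ps3, Rpl23a-ps3 and Rpl17-ps10 completed the highest 10 together with Rpl30-ps9, at ratios between 6.13 and 35.3.

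Rpl30-ps9 read 12.6 TPM in replicate 1 and 540.6 TPM in replicate 2. Its intervals were 6.08 to 361 and 188 to 771 TPM, and they overlapped. Gm12191, an unnamed copy that holds 97.7% of its windows, read 827 and 453 TPM, and the pair summed to 839.9 and 994 TPM. Rpl7a-ps11 had the largest ratio of all, 170.5. It read 0.02 and 15.2 TPM, with intervals of 5.24 to 161 and 3.92 to 319 TPM, so that its deposited TPM in replicate 1 lay below its own interval. Gm8226 holds 99.6% of its windows and read 290.2 and 473 TPM. The pair summed to 290.2 and 489 TPM, a slightly larger ratio between replicates than that of Gm8226 alone.

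Deposited TPM values outside their own interval were found elsewhere as well. Among members there were 18 in replicate 1, of which 14 lay above the upper bound and 4 below the lower, and 13 in replicate 2, all above. That is 12.1% and 8.72% of members, against 58.0% and 60.0% of parents and 12.1% and 8.83% of background genes. Rps23-ps1, for example, had 2467 TPM with an interval of 2376 to 2431. The lower bound was at least 0.1 TPM in both replicates in 129 of 149 members (86.6%), against 91.8% of background genes.

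Between replicates, expected counts were scaled with TMM and compared with the combined posterior SD. A difference of over 2 such SDs was found in 93 of 149 members, where 93.7% of background genes passed the same limit. With counting error added to the SDs it was 68 members, against 76.1% of genes. The credibility intervals of the replicates did not overlap in 54 members (36.2%), 29 of them higher in replicate 1 and 25 in replicate 2, against 65.0% of genes. By each of these measures the members' share was below the background. The limits were not equally strict, however. Relative to the square root of the count, the posterior SD had a median of 0.00122 in background genes and 1.24 in members. Smaller differences therefore pass the first limit in background genes, and for the other limits levels were not matched. These shares do not show which group repeated better between replicates. By size alone the members' share was above: 56 members (37.6%) differed 2-fold or more, 31 higher in replicate 1 and 25 in replicate 2. The same limit was passed by 20.4% of background genes, 8.00% of parents and 44.5% of other processed pseudogenes. Levels were not matched here either: median TPM was 2.50 and 2.01 in members, and 11 and 10.6 in background genes. The 2-fold shares do not show which group repeated better.

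Among 64 members with a summed count of at least 200, the largest excess in replicate 2 was that of Rpl17-ps5, listed at 0 in replicate 1 and at 60.0 TPM in replicate 2. It was followed by Rpl7a-ps11 and by Rps2-ps6, which read 0.94 and 61.5 TPM in replicates 1 and 2. Rpl30-ps9 and Rpl9-ps7 (15.9 and 161 TPM) came next. The largest excess in replicate 1 was that of Rpsa-ps2, with 77.5 and 1.41 TPM, then of Rps6-ps3 with 27.3 and 1.30 TPM, Rpsa-ps11 with 7.84 and 1.39 TPM, Rpl31-ps10 with 28.6 and 5.57 TPM, and Rpl35a-ps6. Of these 10, Rpsa-ps11 had the most unique sequence, at 77.3% of windows, and its intervals of 6.74 to 8.59 and 1.04 to 1.75 TPM did not overlap. Rpl17-ps5 and Rpl7a-ps11 had no unique window.

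**Figure D5:**
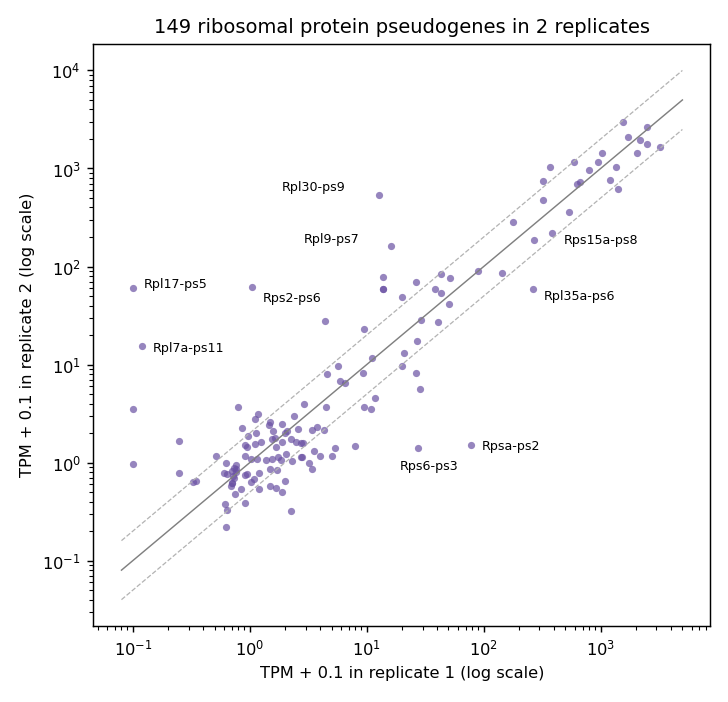
TPM + 0.1 of the 149 members in replicate 2 against replicate 1 (both log scales); the solid line marks equal values and dashed lines a 2-fold difference. Most members above 1000 TPM lie within the dashed lines, and the named members from Rpl17-ps5 to Rpsa-ps2 lie far from it at middle levels.

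By position, 51 members overlapped the span of another annotated gene, 20 of them with at least 1 such gene on the same strand. Any overlap was counted, also that of a short gene model within a member, as in Rpl19-ps11 and Rpl19-ps4. The median of the 51 was 2.60 TPM, beside 2.06 TPM for the 98 members that overlapped no other gene. Of the 16 members in an intron on the same strand, 11 had a host gene with a mean of at least 1 TPM, 4 a host below that, and 1 a host not matched in the tables. The members and hosts named next were singled out after their values were seen. Rpl17-ps8, in an intron of Heph, read 539.8 and 359 TPM, although Heph itself read 0.02 TPM in replicate 1 and was listed at 0 in replicate 2. Only 0.52% of the windows of Rpl17-ps8 were unique, and 84.2% were found in Rpl17, which read 1043 and 598.7 TPM. Rpl18-ps1, in an intron of Ctla4 and with 48.9% unique windows, read 2.29 and 2.92 TPM with Ctla4 at 0 in both. By contrast Rpl10-ps6, with 6.69% unique windows, read 0.25 and 0.55 TPM in an intron of Ide, which read 79.1 and 56.0 TPM. Exons on the same strand were shared by 4 members, Rpl19-ps11, Rpl19-ps1, Rpl19-ps12 and Rpl19-ps4, each with a short microRNA gene model. Rpl19-ps11 read 319 and 749.8 TPM, and the model inside it, Gm27288, read 2557 and 48.9 TPM. Reads of these overlapping genes cannot be told apart by position, and their values are uncertain. Rps23-ps1 and Rps23-ps2 overlapped exons on the opposite strand, of Gm5148 and of C330021F23Rik, both of which read at most 1.07 TPM.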

How the data were processed

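PolyA mRNA of MEL cells was sequenced in 2 biological replicates of 1 group. The deposited gene tables hold expected counts, TPM and FPKM, per the file headers. Their posterior mean counts, posterior SDs and credibility bounds are scores that the authors' quantifier estimated and deposited beside them. Build mm10 and annotation GENCODE M4 are named in the deposited files, and the aligner, quantifier and strand setting are not given in any source used here. Transcript tables were not used. Symbols and types came from GENCODE M21, matched by gene identifier for 42462 of 43346 genes, and 43 of 300 symbols of the rule in M21 were not matched in the tables. Coordinates are those of M21 (GRCm38, the same assembly as mm10). M21 lengths differed from the deposited ones in 26 members, among them Rpsa-ps10.

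Expected counts, rounded, gave TMM factors (edgeR 4.0.16) and size factors (DESeq2 1.42.0, as an alternative). The replicate difference is the scaled count difference over the combined posterior SD. Log2 ratios of TPM used a pseudocount of 0.1, and ratios of scaled counts a prior of 0.5. Members were aligned to coding parent transcripts with blastn 2.17.0 (word size 11), and windows of 36 and 45 bases were looked up in all M21 transcripts, so that a copy outside the annotation was not seen. The window search was tested on simulated sequences. The replicate difference was tested on simulated counts whose posterior SD was set to the square root of the count. Deposited posterior SDs were a median of 0.00122 of that root in background genes, so the simulation does not cover their behaviour. Totals were 67735380 and 79923143 counts. A count of 0 allows up to 3 counts, for counting error only.

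Named were the 15 members highest in TPM, the 10 lowest and 10 highest in posterior SD ratio, every member above its parent, the 5 largest replicate differences each way, 3 on either side of the threshold, exon overlaps on the same strand and the 5 with most unique windows. Some results that this rule would name are not reported here. The members and lists were chosen with earlier results of these data known. Alternatives were other thresholds, units, pseudocounts, scalings and window lengths, and each replicate alone.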

Additional observations from a re-analysis of the deposited data

How the results depend on the processing

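With 2 replicates and no second group, each value rests on 2 libraries, and leaving out 1 leaves a value with no spread. No paired analysis was possible because there is 1 group. Depth limits the members near the threshold, where 20 counts are shared by 2 libraries, and the cause of each change below was not tested unless the alternative itself changes which members enter. Leaving out either replicate gave 143 to 146 members where the minimum in the other was lowered to 10, and 109 to 117 where it was kept at 20, which was added after seeing the data. It also gave 106 to 109 members at 1 TPM, 28.4% to 31.5% of counts on pseudogenes, a median log2 ratio of -7.63 to -7.43, 137 to 138 members with a lower bound of at least 0.1, and a median posterior SD ratio of 1.18 to 1.27. A summed count of at least 100 left 75 members. They took 33.8% of the counts on them and their own parents, and parents left without a member dropped out of that total. Their median log2 ratio was -4.60 and their posterior SD ratio 1.72. Of the 75, 70 had the lower bound, 61 differed by over 2 posterior SDs and 26 overlapped another gene. Unique 36-base windows made up 15.8% (28.0% as planned). At least 20 counts in each replicate left 99 members, with -5.69, 1.34 and 23.5% for the log2 ratio, the posterior SD ratio and the windows. A summed count of at least 10 gave -8.30, 1.12 and 31.9% for the same. A limit of 5 TPM left 51 members, a pseudocount of 1 gave -7.12, and all cytosolic ribosomal protein genes in the denominator gave 19.0%. A 2-fold limit gave 56 members between replicates, and intervals that do not overlap gave 54, a limit chosen after seeing the data. Unique windows made up 34.5% at 45 bases (also chosen after seeing the data), 38.1% at 50, 57.7% at 75, 41.5% where only parent transcripts were searched, and 30.2% in members of equal length in both annotation releases (added after seeing the data). Exon overlap on the same strand was found in 4 members, each with a short microRNA gene model. In all, 38 alternative values, those without 1 replicate included, moved by less than the replicate spread, or, for counts, by less than 1.5 times. The other 26 alternative values did not stay within these limits. The median log2 ratio of member over parent stayed negative in every alternative. Leaving out 1 of 2 replicates always moves their mean by less than their SD. Those values therefore say nothing on how stable a mean is. Windows unique in the genome were not computed, as no genome was used here.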
